A study of Mus musculus with 6 samples.

Results

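A set of 9 genes of the Wnt and R-spondin signalling axis was followed in RNA-seq of the mouse cochlea, the coiled sense organ of hearing, on postnatal day 3. They are the R-spondin gene Rspo3, the receptor genes Lgr4, Lgr5 and Lgr6, the ubiquitin ligase genes Rnf43 and Znrf3, the signal transducer gene Ctnnb1, the transcription factor gene Lef1 and the feedback target Axin2. These 9 genes were taken by symbol from a list and not by a cut on their values. The list was chosen with earlier results of these data known. All 9 matched an Ensembl ID among the 55769 features of each library. The groups were Plscr5-/- cochleae, from mice in which the phospholipid scramblase gene Plscr5 was disrupted, and wild type cochleae, with 3 libraries each. The labels state neither the strain or sex nor which part of Plscr5 was altered, and they do not say how many animals or cochleae went into a library. P-values therefore set a genotype difference against the variation between these libraries only, and some of that variation may be technical. One protocol text names a Pou4f3 mutant line to which no library is assigned, and groups were taken from the genotype field.

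In canonical Wnt signalling a Wnt ligand binds a Frizzled receptor together with Lrp5 or Lrp6, which spares beta-catenin, the product of Ctnnb1, from the destruction complex, and beta-catenin then works with TCF and LEF proteins at target genes. Rnf43 and Znrf3 remove Frizzled receptors from the cell surface, and R-spondins, bound to Lgr4, Lgr5 or Lgr6, hold these ligases back and so raise Wnt sensitivity. In the neonatal mouse cochlea Lgr5 and Lgr6 mark subsets of supporting cells that can give rise to hair cells, and Axin2 marks tympanic border cells under the basilar membrane. Ctnnb1 is also a component of adherens junctions in most epithelia, and Lgr4 is widely expressed, so neither gene marks a progenitor by itself.

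Lef1, a member of the TCF and LEF proteins, and Axin2, a target of them, were both highest in wild type replicate 3, as were Rnf43 and Znrf3. The bases before the Axin2 start and before 2 of the Lef1 starts are shown. The sequences are the 250 bases before a RefSeq transcript start on GRCm38.p6, plus strand, read 5′ to 3′. The Axin2 window is chr11:108920099-108920348, the window of the most upstream Lef1 start is chr3:131110047-131110296, and the window of the most downstream of its 4 listed starts is chr3:131156044-131156293. Capitals mark TCAAAG, 1 form of the sequence that TCF and LEF proteins bind, which was searched on both strands as CTTTGA and TCAAAG. Other forms of that sequence were not searched or marked.
Axin2: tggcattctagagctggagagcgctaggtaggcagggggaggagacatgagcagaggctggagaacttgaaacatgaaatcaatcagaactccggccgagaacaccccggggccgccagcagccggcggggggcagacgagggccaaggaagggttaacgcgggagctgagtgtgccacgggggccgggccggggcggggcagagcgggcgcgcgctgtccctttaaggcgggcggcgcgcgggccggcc
Lef1, upstream start: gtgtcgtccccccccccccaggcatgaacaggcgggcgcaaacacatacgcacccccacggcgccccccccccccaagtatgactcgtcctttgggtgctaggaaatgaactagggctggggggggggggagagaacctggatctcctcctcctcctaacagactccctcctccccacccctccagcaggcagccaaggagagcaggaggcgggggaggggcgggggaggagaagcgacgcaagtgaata
Lef1, downstream start: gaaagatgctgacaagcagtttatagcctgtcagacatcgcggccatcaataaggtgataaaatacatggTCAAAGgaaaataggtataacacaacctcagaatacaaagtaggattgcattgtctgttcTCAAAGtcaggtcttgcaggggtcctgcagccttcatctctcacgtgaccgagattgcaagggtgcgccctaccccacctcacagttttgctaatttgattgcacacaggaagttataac
The downstream Lef1 window held 2 matches, whose first bases lay 180 and 120 bases before the start, and the other 2 windows shown held 0. Of 32851 promoter windows of this length, 13.8% held a match. The table had entries for 6 of the 9 genes, in 11 windows, of which that Lef1 window was the 1 with a match. The windows shown thus include the only window with a match, and the Rnf43 windows, not shown, held 0. The downstream start lies 45997 bases beyond the upstream one. The deposited values are 1 number per gene, so transcripts from the 4 Lef1 starts could not be told apart.

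The values are TPM, a transcript abundance divided by transcript length and scaled to a fixed total, so that levels can be compared between genes. Each library sums to the same total, the read depth is unknown, and no counting interval can be given. The targeted gene Plscr5 ranged from 3.69 to 5.01 TPM in Plscr5-/- and from 9.27 to 14.53 TPM in wild type. Its log2 fold change of -1.28 had an unadjusted p of 0.000119 and a limma adjusted p of 0.290, so that the targeted gene itself did not pass the test used for the 9 genes. All 13 hair cell markers and all 15 supporting cell markers listed for the tissue were above 1 TPM in at least 3 libraries. Wild type replicate 3 stood apart. Its 13 neuronal markers summed to 545.5 TPM and its 10 Schwann cell markers to 371.4 TPM, whereas the other 5 libraries lay between 843.6 and 1165 TPM and between 1208 and 2125 TPM. Its 15 cell division markers summed to 171.2 TPM, against 242.0 to 308.4 TPM in the other libraries.

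The 9 genes averaged from 2.21 to 631 TPM, and none differed detectably between Plscr5-/- and wild type cochleae. Genotype was tested with limma on log2(TPM + 1) over the 17097 features that reached 1 TPM in 3 or more libraries, with Benjamini-Hochberg adjustment over all of them and a threshold of 0.05. All 9 genes were above 1 TPM in every library and entered the fit. Of the 9, 0 passed as higher and 0 as lower, and 0 had an unadjusted p under 0.05. Over all features 2 passed, or 0.0117%, and 2.15% as higher and 1.85% as lower had an unadjusted p under 0.05. The smallest adjusted p among the 9 was 0.989. Their log2 fold changes, Plscr5-/- over wild type after adding 1 to each TPM, ran from -0.16 to 0.04. The median was -0.03, beside -0.01 over all features tested. At 0 of the 9 genes did the 3 Plscr5-/- values all lie on one side of the 3 wild type values, a separation seen at 9.33% of all features. The counts of passing genes stayed at 0 in all 16 alternative settings. In whole tissue, fewer cells of a type and less RNA per cell cannot be told apart.

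**Figure D1:**
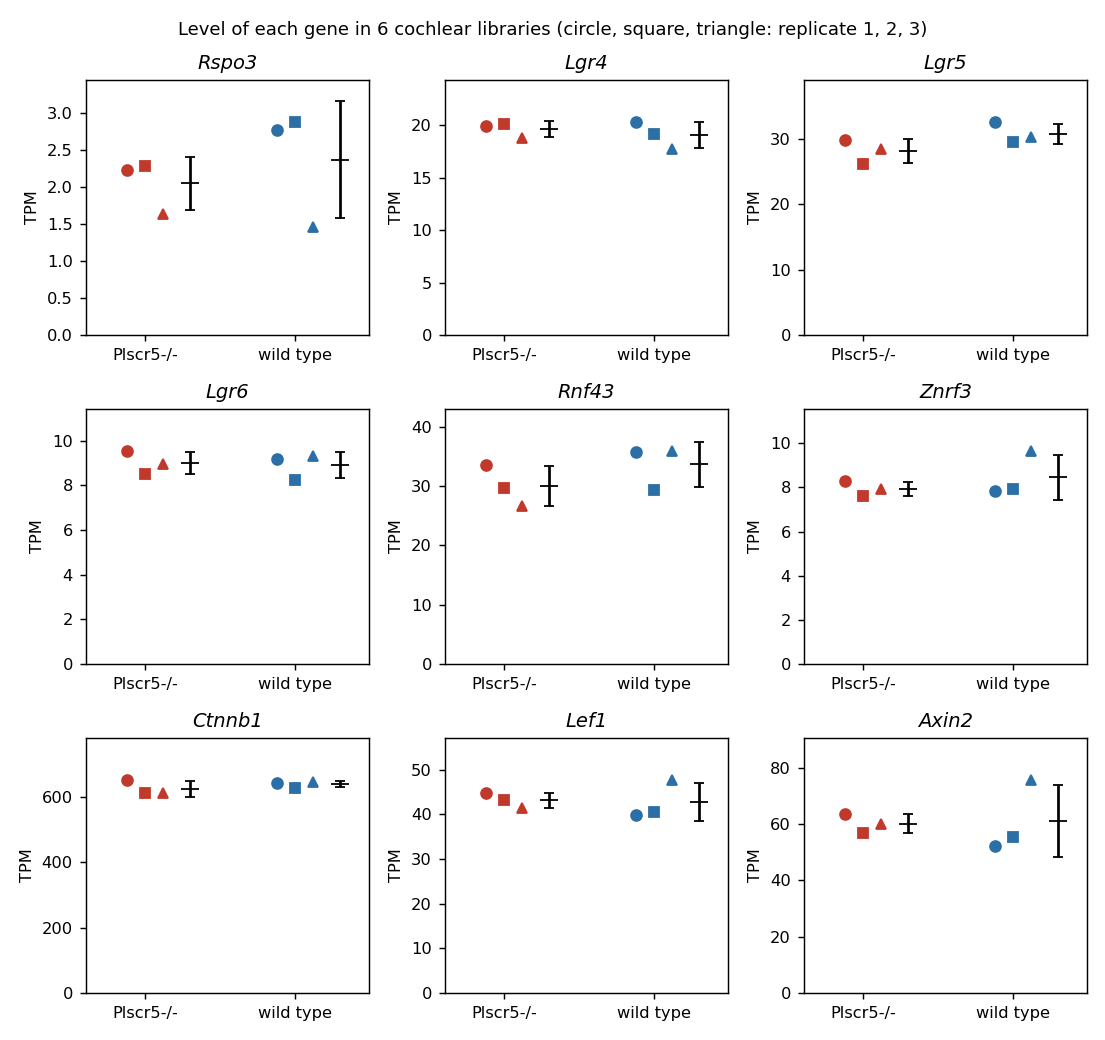
TPM (y axis, from 0) of each of the 9 genes in the 3 Plscr5-/- libraries and the 3 wild type libraries (x axis), 1 symbol per library, with the mean and SD (n = 3) beside them in black. The genotypes overlap in every panel, and wild type replicate 3 (triangle) is the highest point for Axin2, Lef1, Znrf3 and Rnf43 and the lowest for Rspo3 and Lgr4.

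Rspo3 encodes a secreted ligand of the Lgr receptors and was the lowest of the 9 genes. It stood at 2.23, 2.28 and 1.63 TPM in the Plscr5-/- libraries, against 2.77, 2.87 and 1.46 TPM in wild type. The lowest and the highest values both belonged to wild type libraries. The means were 2.05 ± 0.36 TPM in Plscr5-/- and 2.37 ± 0.79 TPM in wild type (SD, n = 3 each), and the log2 fold change was -0.12 (SE 0.23, limma adjusted p = 0.990). Its 95% confidence interval of -0.65 to 0.40 was the widest of the 9. Leaving out single libraries gave -0.333, without wild type replicate 3, to -0.007, without wild type replicate 2. The genotypes did not overlap without wild type replicate 3. Rspo3 made up a small part of the R-spondin transcripts of the tissue. Its share of the summed Rspo1 to Rspo4 TPM was 7.08%, 7.15% and 5.04% in the Plscr5-/- libraries and 8.26%, 8.64% and 4.58% in the wild type libraries. Rspo2 was the most abundant R-spondin gene, at 20.9 to 23.0 TPM in Plscr5-/- and 21.2 to 25.2 TPM in wild type, and Rspo1 followed at 6.24 to 9.66 TPM in Plscr5-/- and 5.61 to 9.05 TPM in wild type. Rspo4 did not exceed 0.14 TPM in any library.

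The Lgr receptors kept one order in every library, with Lgr5 above Lgr4 and Lgr4 above Lgr6. Lgr5, a marker of Wnt-responsive supporting cells, stood at 29.80, 26.06 and 28.44 TPM in the Plscr5-/- libraries, against 32.48, 29.52 and 30.20 TPM in wild type. The highest Plscr5-/- value exceeded the lowest wild type value by a small margin, and the other 4 values were separated. The means were 28.1 ± 1.9 TPM in Plscr5-/- and 30.7 ± 1.6 TPM in wild type, with a log2 fold change of -0.13 (SE 0.09, limma adjusted p = 0.989). The interval of -0.33 to 0.08 corresponds to 0.79 to 1.06 times the wild type level of TPM + 1. The 6 Lgr5 values gave p = 0.2 in an exact permutation test (two-sided), the lowest among the 9 genes, and 0.1 is the smallest that 3 against 3 libraries can give. Lgr5 became 1 separated gene, lower in Plscr5-/-, after upper-quartile scaling or quantile normalization, beside 10.1% and 10.5% of all features in those settings.

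Lgr4, the broadly expressed receptor of the family, stood at 19.98, 20.15 and 18.75 TPM in the Plscr5-/- libraries, against 20.29, 19.13 and 17.76 TPM in wild type. Lgr6 stood at 9.53, 8.53 and 8.97 TPM in the Plscr5-/- libraries, against 9.20, 8.23 and 9.32 TPM in wild type. At both genes the values of the genotypes overlapped. Their log2 fold changes were 0.04 for Lgr4 (SE 0.09) and 0.01 for Lgr6 (SE 0.12). Over all 6 libraries the SD of log2(TPM + 1) was 0.07 for each, and 8.34% (Lgr4) and 8.93% (Lgr6) of tested features varied less.

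The ratio between receptors was taken within each library, where the scaling of the library cancels. Lgr5 over Lgr6 was 3.13, 3.06 and 3.17 in the Plscr5-/- libraries, against 3.53, 3.59 and 3.24 in the wild type libraries. Lgr5 over Lgr4 was 1.49, 1.29 and 1.52 in the Plscr5-/- libraries, against 1.60, 1.54 and 1.70 in the wild type libraries. Both ratios were lower in each Plscr5-/- library than in any wild type library. They are 2 of 36 ratios formed between the 9 genes, of which 5 (13.9%) did not overlap between genotypes. Of those 5, Ctnnb1 over Lgr5 also involves Lgr5. The ratio of Lgr5 to each of 16778 other features was separated in 2389 cases (14.2%), of which 2190 were lower in Plscr5-/-. That share is for ratios with Lgr5 only, whereas the 36 include ratios without it. Lgr4 over Lgr6 ran from 2.09 to 2.36 in the Plscr5-/- libraries and from 1.91 to 2.32 in the wild type libraries.

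Rnf43 and Znrf3 encode the membrane ubiquitin ligases that R-spondins hold back, and both are themselves Wnt targets in several tissues. Rnf43 was the more abundant, at 33.61, 29.74 and 26.73 TPM in the Plscr5-/- libraries, against 35.82, 29.30 and 35.90 TPM in wild type. Plscr5-/- replicate 3 was lowest, and a wild type library stood next above it. The means were 30.0 ± 3.4 TPM in Plscr5-/- and 33.7 ± 3.8 TPM in wild type. The log2 fold change of Rnf43, -0.16 (SE 0.12, limma adjusted p = 0.989), was the most negative of the 9 and lay between -0.25 and -0.08 whichever library was removed. Znrf3 stood at 8.27, 7.63 and 7.91 TPM in the Plscr5-/- libraries, against 7.84, 7.92 and 9.64 TPM in wild type. For Znrf3, 5 libraries lay close together and wild type replicate 3 lay above them. Its log2 fold change was -0.08 (SE 0.13) with all libraries and 0.009 without wild type replicate 3. Rnf43 over Znrf3 within a library ran from 3.38 to 4.06 in Plscr5-/- and from 3.70 to 4.57 in wild type.

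Ctnnb1, which encodes beta-catenin, was the most abundant and the least variable of the 9 genes. It stood at 650.87, 610.11 and 610.13 TPM in the Plscr5-/- libraries, against 640.58, 628.19 and 645.18 TPM in wild type. The highest and the lowest values were both Plscr5-/-, and the coefficient of variation over the 6 libraries was 2.81%. The log2 fold change was -0.03 (SE 0.05), with a 95% confidence interval of -0.15 to 0.08, the narrowest of the 9. The SD of log2(TPM + 1) over the 6 libraries was 0.04, and 1.15% of tested features varied less.

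Lef1 and Axin2 act at the end of the pathway, Lef1 as a DNA-binding partner of beta-catenin and Axin2 as a direct target that feeds back on the destruction complex. Lef1 stood at 44.64, 43.21 and 41.42 TPM in the Plscr5-/- libraries, against 39.92, 40.57 and 47.64 TPM in wild type. Axin2 stood at 63.61, 56.98 and 59.88 TPM in the Plscr5-/- libraries, against 52.14, 55.36 and 75.63 TPM in wild type. In both genes the Plscr5-/- libraries lay in the middle, wild type replicates 1 and 2 below them and wild type replicate 3 above them. The means were 43.1 ± 1.6 TPM in Plscr5-/- and 42.7 ± 4.3 TPM in wild type for Lef1, and 60.2 ± 3.3 TPM in Plscr5-/- and 61.0 ± 12.7 TPM in wild type for Axin2. The log2 fold changes were 0.02 (SE 0.09) for Lef1 and -0.003 (SE 0.14) for Axin2, each with a limma adjusted p of 0.998.

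Of the single libraries left out, wild type replicate 3 was the one whose absence moved the Axin2 and Lef1 values most. In its absence, the log2 fold change was 0.16 for Axin2 and 0.10 for Lef1, with unadjusted p of 0.112 and 0.307, and neither passed. The 2 remaining wild type libraries averaged 53.8 TPM for Axin2 and 40.2 TPM for Lef1, below each Plscr5-/- library. Together with Rspo3, which was lower, that made 3 of 9 genes without overlap in that setting, where 19.1% of all features did not overlap. Leaving out Plscr5-/- replicate 1 separated Lgr5 and Ctnnb1, and leaving out wild type replicate 2 separated Lgr5 and Rnf43, all lower in Plscr5-/-, beside 25.9% and 21.9% of all features.

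**Figure D2:**
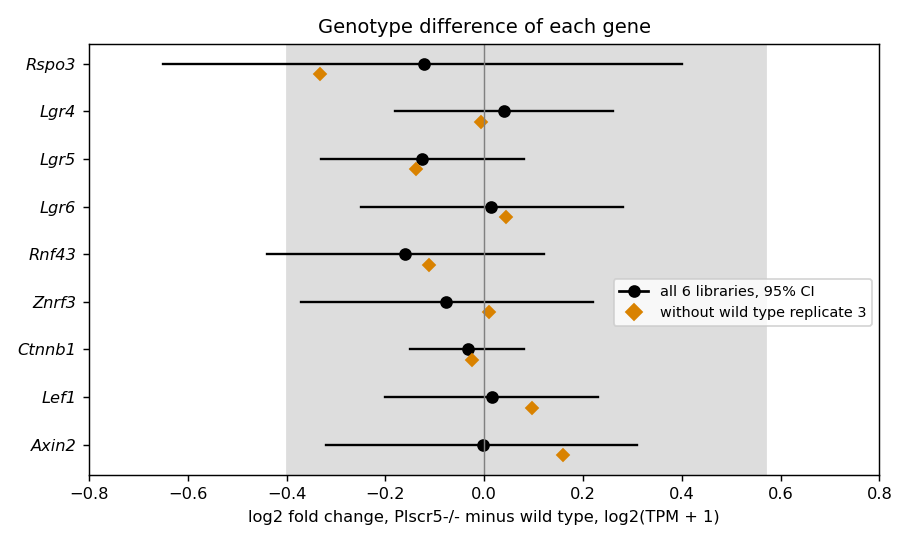
Log2 fold change, Plscr5-/- over wild type in TPM + 1 (x axis), for each of the 9 genes (rows). Black points and lines are the limma estimate and its 95% confidence interval from 3 libraries per genotype, diamonds the estimate without wild type replicate 3, and the grey band holds the central 95% of all tested features. Every interval crosses 0, and Rspo3, Axin2 and Znrf3 shift most when that library is left out.

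Ordered by their mean over all 6 libraries, the genes ran from Ctnnb1 (631 TPM) through Axin2 (60.6 TPM), Lef1 (42.9 TPM), Rnf43 (31.9 TPM), Lgr5 (29.4 TPM), Lgr4 (19.3 TPM), Lgr6 (8.96 TPM) and Znrf3 (8.20 TPM) to Rspo3 (2.21 TPM). The ranges of Rnf43 and Lgr5 overlapped, and so did those of Lgr6 and Znrf3, so that these neighbours did not differ beyond their spread over libraries. Every other pair of neighbours was separated in level over all 6 libraries. Axin2 exceeded Lef1 by 1.31 to 1.59 times within a library, and Znrf3 exceeded Rspo3 by 2.76 to 6.60 times.

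Wild type replicate 3 was an extreme library for most of the 9 genes. It held the highest value of 4 (Axin2, Lef1, Rnf43 and Znrf3) and the lowest of 2 (Rspo3 and Lgr4). Over all tested features it held the highest value at 21.6% and the lowest at 20.9%. On the log2(TPM + 1) scale, relative to the mean of all libraries, Axin2 stood at 0.33, Znrf3 at 0.21 and Lef1 at 0.15 in this library, and Rspo3 at -0.36. In the same library the medians were -1.29 for the neuronal markers, -1.47 for the Schwann cell markers and -0.60 for the cell division markers. The median of the osteoblast list, also lowest in this library, stood at -0.20, but its members were split. Spp1 (40.10 TPM), Sp7, Ifitm5 and Phex were lowest there, Ibsp (3.09 TPM) and Bglap (3.46 TPM) were highest, and Runx2, Alpl and Dmp1 lay between. The supporting cell list stood there at 0.06, the hair cell list at 0.08 and the greater epithelial ridge list, which covers the cells medial to the hair cells, at 0.09. The part of these cell types in the values of the 9 genes was not tested.

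**Figure D3:**
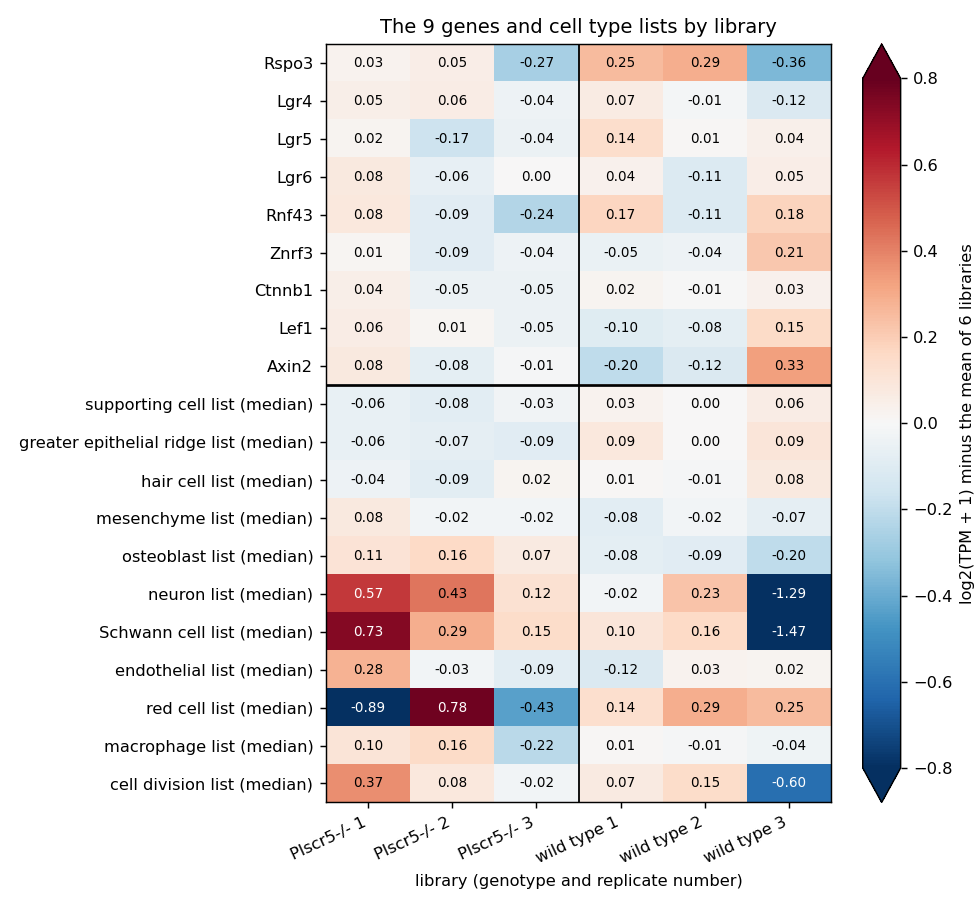
Each cell gives log2(TPM + 1) minus the mean of the 6 libraries (colour scale cut at -0.8 and 0.8, value printed) for the 9 genes (upper rows) and as a median over the members of each cell type list (lower rows), with the Plscr5-/- libraries on the left. Wild type replicate 3 has the lowest neuronal, Schwann cell, cell division and osteoblast medians, the highest Axin2, Znrf3 and Lef1 and the lowest Rspo3.

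The same profile over 6 libraries was compared with those of all protein-coding features with a mean of at least 5 TPM, by the Euclidean distance between centred log2(TPM + 1) values. For Axin2 the nearest were Nfatc1, a transcription factor gene, at a distance of 0.0825, and Fam122a at 0.0949, and these were the only 2 of 11905 within 0.1. Nfatc1 stood at 13.67, 11.87 and 12.71 TPM in the Plscr5-/- libraries, against 11.59, 11.46 and 16.07 TPM in wild type. For Rspo3 the nearest were Pclaf, a gene of DNA replication, at 0.0872 and Ydjc at 0.0900. For Rnf43 they were Sec16a, a gene of vesicle export from the endoplasmic reticulum, at 0.0837 and Sobp at 0.0917. The other members had many near neighbours. Lgr5 lay nearest to Trip11 (0.0391) and Gipc1 (0.0449), with 48 features within 0.1, and Znrf3 to Pcx (0.0159) and Irf2bpl (0.0232), with 71. Lef1 lay nearest to Rhbdd1 (0.0438) and Elmo1 (0.0447), Lgr4 to Lnpk (0.0338) and Pgk1 (0.0391), and Lgr6 to Sgsm1 (0.0486) and Faf2 (0.0538). Ctnnb1 lay nearest to Erp29 (0.0327) and Cacfd1 (0.0338), with 256 features within 0.1. None of the nearest genes is on the Wnt lists used here.

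The wider Wnt pathway, taken from a list of 91 genes in 8 groups by role, likewise held no gene that passed. Of its 76 tested genes 22 were positive and 54 negative in log2 fold change. The median was -0.05, beside a median of -0.01 over all features, of which 53.4% were negative. Of the 76, 4 (5.26%) had an unadjusted p under 0.05 and 8 (10.5%) did not overlap between genotypes, beside 684 (2.15% higher and 1.85% lower) and 9.33% of all 17097 features. Wild type replicate 3 held the highest value at 28 of the 76 (36.8%), beside 21.6% of all features. Plscr5-/- replicate 1 held it at 20 (26.3%, beside 25.9%) and wild type replicate 1 at 18 (23.7%, beside 23.3%). Of the 29 pathway genes named below for their p within a group, 24 had a log2 fold change that depended on a single library. Leaving out some library moved it by over 1.5 times or changed its sign. Without wild type replicate 3, 12 did so. The other libraries ran from 2 (without Plscr5-/- replicate 2) to 11 (without wild type replicate 2). Each of the 9 genes moved likewise, 6 of them without wild type replicate 3 and 5 or 6 without each other library.

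Among Wnt ligands, 10 of 19 were tested, with a median log2 fold change of -0.01. Wnt11, a ligand best known for signalling without beta-catenin, stood at 2.81, 3.26 and 2.64 TPM in the Plscr5-/- libraries, against 1.82, 1.45 and 1.33 TPM in wild type. Every Plscr5-/- value lay above every wild type value. The log2 fold change of 0.63 (SE 0.17) had an unadjusted p of 0.00653, rank 61 among all features, and a limma adjusted p of 0.989, and did not pass. Leaving out any single library gave 0.56 to 0.70. Wnt5a was the most abundant Wnt, at 78.6 to 83.1 TPM in Plscr5-/- and 77.2 to 102 TPM in wild type, followed by Wnt7b and Wnt7a, each with a log2 fold change of -0.12. These 3 became -0.026 for Wnt5a, -0.068 for Wnt7b and -0.053 for Wnt7a without wild type replicate 3, against -0.124 for Wnt5a with all libraries. Wnt1 and Wnt8a were listed at 0 in every library. Of the genes that act on the ligands, Porcn, which attaches the lipid that Wnts need for secretion, stood at 18.18, 18.03 and 20.68 TPM in the Plscr5-/- libraries, against 14.37, 15.35 and 18.02 TPM in wild type. The genotypes were separated only by 18.03 against 18.02 TPM, with a log2 fold change of 0.24 (SE 0.12, limma adjusted p = 0.989). Notum, which removes that lipid, had 0.06, and Wls, which carries Wnts to the surface, had -0.03. The other R-spondins had 0.18 for Rspo1 and -0.10 for Rspo2.

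Of 15 Frizzled, Lrp, Ror and Ryk receptor genes, 14 were negative in log2 fold change (median -0.10), and 0 passed. Lrp6 stood at 40.1 to 44.2 TPM in Plscr5-/- and 42.9 to 51.3 TPM in wild type (log2 fold change -0.19), and Fzd4 and Fzd8 had -0.19 and -0.18. Fzd6 had -0.25, which became -0.07 without wild type replicate 3, where it stood at 53.21 TPM. Ryk, named after its values were seen, was the 1 receptor without overlap, at 45.89 to 47.67 TPM in Plscr5-/- and 48.11 to 50.82 TPM in wild type.

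Of 10 tested secreted inhibitors and Kremen genes, 8 were negative, with a median of -0.09. Sfrp2, a Wnt-binding antagonist, stood at 40.99, 41.79 and 42.75 TPM in the Plscr5-/- libraries, against 45.52, 46.70 and 51.64 TPM in wild type. Kremen1, a receptor for Dkk inhibitors, stood at 63.42, 60.01 and 61.36 TPM in the Plscr5-/- libraries, against 68.81, 65.73 and 77.23 TPM in wild type. Neither gene overlapped between genotypes. Both had a log2 fold change of -0.19, with unadjusted p of 0.0458 and 0.0488 and a limma adjusted p of 0.989. Without wild type replicate 3 the values were -0.14 for Sfrp2 and -0.13 for Kremen1. Dkk3 had -0.16, which became -0.045 without that library. Sostdc1 had 0.60, which became 0.28 without it, and was lowest there at 23.70 TPM.

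The destruction complex and Dishevelled group, 14 genes with 9 negative, had a median of -0.03 and 0 genes without overlap, with values of -0.11 for Apc, -0.07 for Csnk1d, 0.12 for Apc2 and -0.09 for Gsk3b. Among 12 TCF genes and nuclear partners the median was -0.04. Tcf7l2, a relative of Lef1, stood at 19.05, 17.22 and 17.92 TPM in the Plscr5-/- libraries, against 20.57, 20.61 and 21.59 TPM in wild type. The corepressor gene Tle4 stood at 20.08, 18.92 and 16.75 TPM in the Plscr5-/- libraries, against 15.72, 16.58 and 12.80 TPM in wild type. These were the 2 genes of the group whose genotypes did not overlap, and they went in opposite directions. The log2 fold change was -0.20 (SE 0.09) for Tcf7l2 and 0.29 (SE 0.13) for Tle4, each with a limma adjusted p of 0.989. Tle5 had 0.14 and Pygo2 had -0.22.

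Of 10 other tested Wnt targets 9 were negative, with a median of -0.10, and 0 passed. Tnfrsf19, a receptor gene often found beside Lgr5 in stem cells, stood at 167.26, 158.33 and 167.88 TPM in the Plscr5-/- libraries, against 180.97, 171.04 and 202.82 TPM in wild type. The Tnfrsf19 values did not overlap, with a log2 fold change of -0.17 (SE 0.08), which was -0.10 without wild type replicate 3. The Notch ligand gene Jag1 had -0.20, Sox4 had -0.11 and Cd44 had -0.12. With single libraries left out, Jag1 ran from -0.302 to -0.144, Sox4 from -0.214 to -0.034 and Cd44 from -0.185 to -0.011. Beside these negative medians, the supporting cell list had a median of -0.08, with 12 of 15 members negative. Dkk3 is on both that list and the list of secreted inhibitors. The hair cell list had a median of -0.11, with 9 of 13 negative. The greater epithelial ridge list had a median of -0.14, with 7 of 9 negative, and 4 of the 9 (44.4%) were lower in Plscr5-/- without overlap, beside 9.33% of all features in either direction. The medians were positive for the Schwann cell list (0.80, 10 of 10 positive), the neuronal list (0.76, 10 of 13 positive) and the cell division list (0.24, 14 of 15 positive). The osteoblast list had a median of 0.17, with 7 of 8 positive. The median level of each of these lists with a positive median was lowest in wild type replicate 3. Some members, such as Ibsp of the osteoblast list and Isl1 of the neuronal list, were highest there. No member of these lists passed. The part of these cells in the pathway values was not tested.

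**Figure D4:**
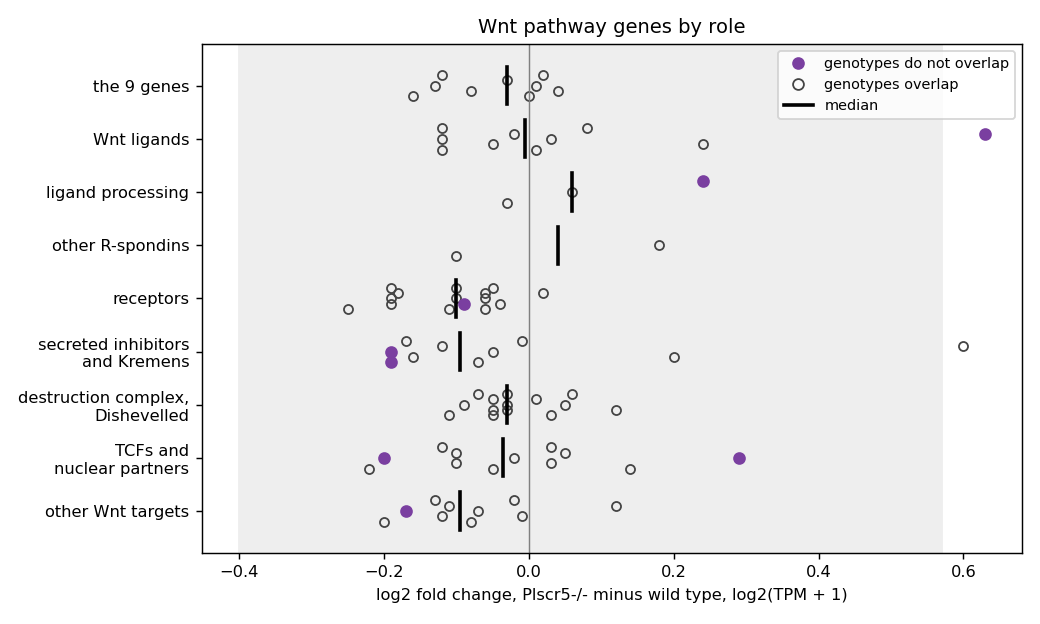
Log2 fold change, Plscr5-/- over wild type in TPM + 1 (x axis), of each tested gene by its role in Wnt signalling (rows). Filled points are the 8 genes whose genotypes do not overlap, bars are medians and the grey band holds the central 95% of all tested features. Wnt11 at 0.63 and Sostdc1 at 0.60 are the 2 genes beyond that band, and none passed.

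Neighbouring genes may limit some of these values. Overlap was found between whole gene spans, and whether exons overlap was not checked. Lgr5 overlaps A930009A15Rik on the opposite strand (14.20 to 17.76 TPM), and Lef1 overlaps the antisense Gm43352 (3.77 to 6.54 TPM). Ctnnb1 overlaps Ulk4 on the opposite strand (4.33 to 7.06 TPM). Whether the counting used strand is not given in the sources used here, so reads of such partners may be divided between them.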

How the data were processed

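Total RNA of cochleae was sequenced in 6 libraries, 3 per genotype, with groups taken from the labelled genotype. The deposited values are in TPM, made by the authors, sum to 1000000 per library and keep no read depth, as read from the values. Per the submitters' processing notes, DESeq2 and the build mm8 were used, with no role given. The aligner, the quantifier and the gene models behind the IDs were not given in the sources used here.

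Symbols and overlaps came from GENCODE M21 (GRCm38), which named 52135 of 55769 IDs. Overlaps rest on its coordinates, and because the builds differ none of these is printed. The 17097 features that reached 1 TPM in 3 or more libraries were tested with limma 3.58.1 in R 4.3.3, on log2(TPM + 1) with an intensity trend and robust moderation. The fit was checked on simulated data. There 34 of 82 features changed 1.5 times passed, 38 of 58 changed 2 times and 58 of 60 changed 4 times. Of the unchanged features 7 passed. The simulated noise was independent between features, without shifts shared by a whole library, and changes were planted only at features above a low level. More features were changed there than the 2 that passed in the data, which eases the adjusted threshold. The shares found are therefore not the power of the test on the measured libraries, where Plscr5 did not pass. Exact permutation tests used scipy 1.17.1.

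The genes named were Plscr5, the 9 genes, up to 4 genes with the smallest p of each pathway group, and the 2 nearest profiles of each of the 9. Outside this rule, Ryk, Wnt1, Wnt8a, Rspo4 and the genes that overlap one of the 9 were chosen after their values were seen. Tle5 and Fam159b were matched through synonyms in RefSeq. The 9 genes, the lists and the rule were chosen with earlier results of these data known. Alternatives were other pseudocounts, filters, scalings and variance settings, a replicate block, and each library left out.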

Additional observations from a re-analysis of the deposited data

How the results depend on the processing

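No setting made any of the 9 genes or the other pathway genes pass. All 9 were tested in every setting except the filter at 5 TPM, which left 8. The median log2 fold change of the 9 stayed between -0.06 and -0.006 with single libraries left out. The count of the 9 without overlap was 1 after upper-quartile scaling and 1 after quantile normalization, and 0 to 3 with single libraries left out. Over all features, the count that passed as lower was 0 without a filter, 0 without the intensity trend and 1 after upper-quartile scaling or with haemoglobin and mitochondrial genes removed, against 2. When single libraries were left out, 0 to 2 passed as lower and 0 to 2 as higher. With the replicate block 0 passed as lower and 1250 had an unadjusted p under 0.05, against 684, and the smallest adjusted p of the 9 was 0.735. Deviations from the genotype means correlated at 0.188, -0.055 and 0.242 between libraries with the same number. Libraries numbered 1 and 3 correlated best with their own number, and those numbered 2 did not. With 3 libraries per genotype these values cannot decide whether the numbers pair the libraries.

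Of 143 checks on the 9 genes, 132 kept their sign and 11 changed it, none past the threshold. Axin2 was 0.007 after upper-quartile scaling and 0.004 after quantile normalization. When single libraries were left out, the log2 fold change ranged from -0.105 to 0.159 for Axin2, from -0.029 to 0.096 for Lef1, from -0.006 to 0.085 for Lgr4, from -0.037 to 0.049 for Lgr6, from -0.125 to 0.009 for Znrf3, from -0.333 to -0.007 for Rspo3, from -0.016 to 0.168 for Notum and from -0.080 to 0.049 for Wls. Of these, Rspo3 kept its sign. The cause of these changes was not tested. The unknown depth limits what can be said of Rspo3 and other genes near 1 TPM.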
